A study of Mus musculus with 10 samples.

Results

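The retinoblastoma (pocket) proteins and the E2F transcription factors form the switch that decides whether a cell enters the cell cycle, and 10 of their mouse genes were followed here by symbol, out of 29527 genes in the table: the pocket protein genes Rb1, Rbl1 (p107) and Rbl2 (p130), and E2f1, E2f2, E2f3, E2f4, E2f5, E2f7 and E2f8. All 10 were found. RNA was extracted from the dissected intermediate lobe (IL) of the pituitary, a tissue made up mostly of melanotrophs, and each mouse gave 1 bulk sequencing library. There were 4 wild-type (WT) mice, 3 p27-/- mice, which lack both copies of Cdkn1b through a germline deletion present in every cell, and 3 p27-/-;Sox2+/- mice (compound mutants), which also lack 1 copy of Sox2. The mice were 2 to 3 months old, each group held females and males, and the background was mixed. The questions were what loss of P27 did to these transcripts, and whether removal of 1 copy of Sox2 altered that. Values are normalized expression on a log2 scale, and a log2 difference of 1 is a doubling. Differences of genes with few reads can be understated on normalized log2 scales, which was not tested here.

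In a resting cell, pocket proteins bind E2F factors at the promoters of cell cycle genes and hold these genes silent. Cyclin D kinases, and then cyclin E kinases, phosphorylate the pocket proteins, which then release E2F, and inhibitors such as P27 restrain these kinases. RB1 mostly binds the activators E2F1, E2F2 and E2F3, whereas p107 and p130 bind E2F4 and E2F5 and join the MuvB subunits in the DREAM complex, which represses cell cycle genes in quiescence. E2F7 and E2F8 are atypical repressors that bind DNA without a DP protein, the dimer partner of the other E2Fs. They are themselves transcribed as cells pass into S phase. The IL of the mouse is a tissue in which loss of Rb1, like loss of P27, is known to lead to melanotroph tumors.

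The IL samples matched their label, with the 4 melanotroph markers Pomc, Pax7, Pcsk2 and Tbx19 all at log2 values of at least 10.58 in the lowest sample of each group. Of other cell types, the summed level of 4 endothelial markers was lower in p27-/- (log2 7.96 to 8.34) than in WT (8.42 to 8.79) samples, and 1 of the 4, Kdr, fell (log2 difference -0.83, adjusted p = 0.00966 in limma, against -0.67, adjusted p = 0.0459, in compound mutants). The summed level of 4 anterior lobe hormone transcripts varied from 13.05 to 17.7 within WT, 12.46 to 16.47 in p27-/- and 13.06 to 14.55 in compound mutants. Of these, Fshb fell in both mutants (-2.04 and -2.27). The summed level of 5 posterior lobe markers was also lower in p27-/- (8.22 to 8.59) than in WT (8.63 to 9.26), with no marker called, and those of fibroblast, macrophage, stem cell and red blood cell markers overlapped or had no marker called. Of the 4 melanotroph markers only Pcsk2 was called, and it rose in p27-/- (0.53, adjusted p = 0.0352). Pomc, Pax7 and Tbx19 were not called in either mutant. These genes were named after their values were seen. In bulk RNA, fewer cells of a type and less RNA per cell cannot be told apart, and the part of cell composition in the results below was not tested. Cdkn1b itself was between 8.39 and 8.85 in WT, 8.04 and 8.27 in p27-/- and 7.73 and 8.10 in compound mutants, with no overlap between WT and mutant samples, so that reads were still assigned to this gene in mutants. Sox2 was between 7.34 and 7.75 in WT, 7.08 and 7.45 in p27-/- and 6.88 and 7.07 in compound mutants. By limma it was not called against WT in p27-/- (adjusted p = 0.459) or compound mutants (0.0811), nor between the mutants (0.791).

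In WT IL the pocket protein genes Rbl2 and Rb1 and the repressors E2f4 and E2f5 were the most abundant of the 10, and E2f1, E2f7 and E2f8 the least. To compare genes, each log2 value was set per kilobase of the longest annotated transcript of the gene. On this scale Rbl2 was the highest at 7.55 ± 0.12 (SD, n = 4), followed by Rb1 at 7.27 ± 0.20, E2f4 at 6.84 ± 0.08 and E2f5 at 6.29 ± 0.22. E2f3 followed at 5.27 ± 0.17, Rbl1 at 4.87 ± 0.21 and E2f2 at 4.70 ± 0.21. E2f1 stood lower at 3.20 ± 0.08, and E2f7 (1.57 ± 0.16) and E2f8 (1.27 ± 0.13) were at the bottom. The WT samples of E2f3 overlapped those of Rbl1, those of Rbl1 overlapped those of E2f2, and those of E2f7 overlapped those of E2f8, whereas the other neighbours in this order did not overlap. In linear units per kilobase, Rbl2 was at 187 and E2f1 at 9.16, so that E2f1, whose change is described below, was low on this scale. Which transcripts were in use and how the values were transformed were not known, so that close neighbours are ordered only roughly. In p27-/- the order of the 2 most abundant members was the other way round, with Rb1 at 7.34 ± 0.12 (SD, n = 3) and Rbl2 at 7.29 ± 0.07 per kilobase, but their samples overlapped. In compound mutants Rbl2 was again first (7.39 ± 0.06) and Rb1 second (7.22 ± 0.02), and E2f2 (4.96 ± 0.18) and Rbl1 (4.89 ± 0.30) had changed places with overlapping samples.

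**Figure D1:**
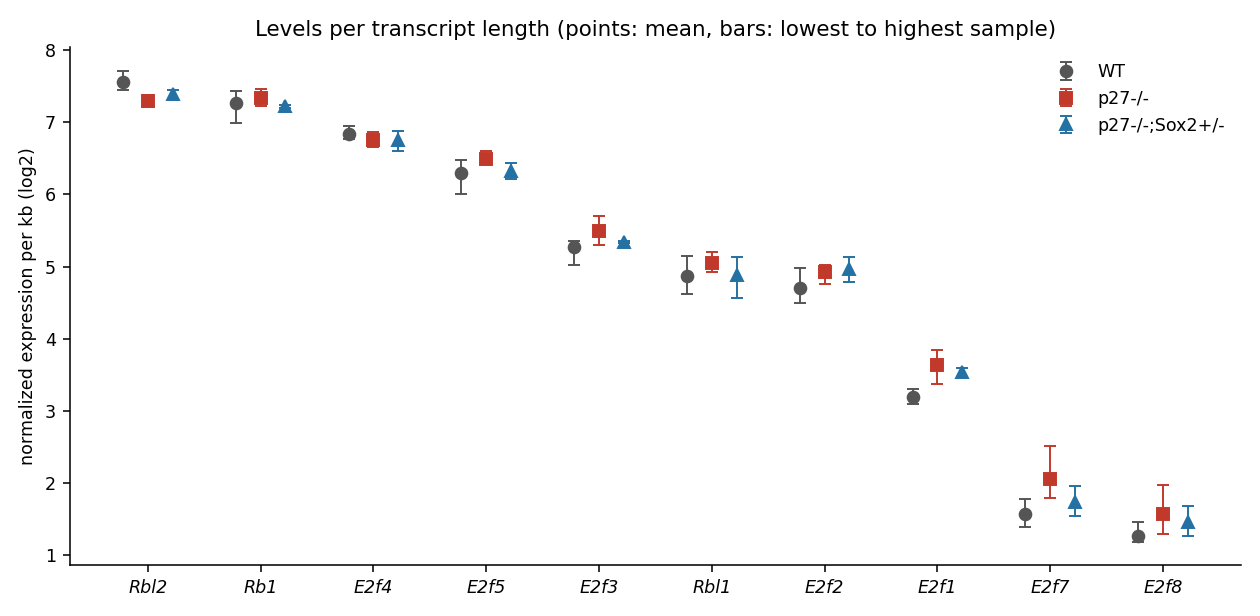
Normalized expression per kilobase of transcript (log2, vertical axis) of the 10 genes in order of their WT level. Points are means of 4 WT, 3 p27-/- and 3 p27-/-;Sox2+/- samples and bars run from the lowest to the highest sample. Rbl2 and Rb1 lie at 6.99 or above in all samples, and E2f7 and E2f8 at 2.51 or below.

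Among the pocket proteins, Rbl2 was the gene whose mutant samples separated from WT. Rbl2 (ENSMUSG00000031666, GRCm38 chromosome 8 from 91070057 to 91123844), which encodes p130, the pocket protein of quiescent cells, was at log2 9.77, 9.75, 10.01 and 9.85 in the WT samples, 9.55, 9.67 and 9.55 in p27-/- and 9.71, 9.62 and 9.74 in compound mutants. All 6 mutant samples were below every WT sample, the compound mutants only narrowly (9.74 against 9.75 in the nearest samples). The log2 difference from WT was -0.25 in p27-/- (SE 0.09, 95% confidence interval -0.44 to -0.07, adjusted p = 0.0874) and -0.16 in compound mutants (SE 0.09, -0.34 to 0.03, adjusted p = 0.36), so that neither passed the threshold of 0.05. Of all 17268 genes tested, 4.88% had all 6 mutant samples below all WT samples.

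Rb1 (ENSMUSG00000022105, chromosome 14 from 73192858 to 73325951) was at 9.21, 9.59, 9.65 and 9.49 in WT, 9.67, 9.44 and 9.56 in p27-/- and 9.46, 9.44 and 9.41 in compound mutants. The 3 groups overlapped, and the compound mutants all lay between the lowest and the second lowest WT sample. The difference was 0.07 in p27-/- (95% confidence interval -0.16 to 0.30) and -0.05 in compound mutants (-0.28 to 0.18), which leaves room for changes of up to 1.23-fold in p27-/-. Rbl1 (ENSMUSG00000027641, chromosome 2 from 157145893 to 157204534), which encodes p107, the pocket protein that is itself an E2F target in cycling cells, was at 6.90, 7.17, 7.12 and 7.43 in WT, 7.21, 7.29 and 7.48 in p27-/- and 7.41, 7.28 and 6.84 in compound mutants. The highest WT sample lay above 2 of the 3 p27-/- samples, and the lowest of all 10 was a compound mutant. The differences were 0.17 (SE 0.15, adjusted p = 0.523) and 0.02 (SE 0.15, adjusted p = 0.963).

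Within each sample, the gap between the 2 DREAM pocket proteins differed between WT and p27-/-. Rbl1 was below Rbl2 by log2 values of -2.87, -2.59, -2.88 and -2.43 in WT, -2.34, -2.38 and -2.07 in p27-/- and -2.30, -2.34 and -2.90 in compound mutants. The gap was smaller in every p27-/- sample than in every WT sample, but only narrowly (-2.38 against -2.43 in the nearest samples). The compound mutants spread over the range of both, with replicate 3 slightly wider than the widest WT sample. Rbl2 alone already lay lower in every p27-/- sample than in every WT sample, so that the gap is not a separate result. It was not tested, and the share of other gene pairs that separate was not counted.

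Of the activator E2Fs, E2f1 rose in p27-/- IL. E2f1 (ENSMUSG00000027490, chromosome 2 from 154559400 to 154569892) encodes 1 of the activators that RB1 binds, and is transcribed on exit from quiescence. Its log2 values were 4.76, 4.62, 4.57 and 4.69 in WT, 4.83, 5.30 and 5.19 in p27-/- and 5.05, 5.03 and 4.93 in compound mutants. Every mutant sample was above every WT sample, p27-/- replicate 1 only narrowly, and the p27-/- samples were spread more widely than either other group. The log2 difference in p27-/- was 0.45 (SE 0.12, 95% confidence interval 0.19 to 0.70), a fold of 1.36, with an adjusted p of 0.0374. It was the 1 called gene among the 9 members tested, 11.1%, beside 7.78% of all genes tested, so that the share called among members was near that of all genes. The call was fragile: the adjusted p ranged from 0.0178 to 0.158 with a sample left out, and it was lost without WT replicate 2, 3 or 4, without p27-/- replicate 2 (0.158) or 3 (0.145) and without compound mutant replicate 1 or 2, while the difference stayed between 0.35 and 0.59. It was also lost with no filter on low values (0.0566), in a fit of only the 2 groups (0.0698) and with the replicate number as a block (0.0986).

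In compound mutants E2f1 was 0.35 above WT (SE 0.12, 95% confidence interval 0.09 to 0.60), which did not pass the threshold (adjusted p = 0.14). The difference between the mutants, -0.10 (SE 0.13, -0.38 to 0.17, adjusted p = 0.985), did not pass either, so that the E2f1 values do not tell the mutants apart. Of all tested genes, 3.85% had all 6 mutant samples above all WT samples. Set against the abundant repressor E2f4 within each sample, E2f1 minus E2f4 was between -3.33 and -3.01 in WT. It was between -2.92 and -2.36 in p27-/- and between -2.85 and -2.66 in compound mutants, with no overlap between WT and mutants. E2f1 alone already had no such overlap, so that this difference is not separate support.

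E2f2 (ENSMUSG00000018983, chromosome 4 from 136172274 to 136196057) and E2f3 (ENSMUSG00000016477, chromosome 13 from 29906575 to 29986064), the other activators, did not pass the threshold. E2f2 was at 7.22, 6.99, 6.82 and 6.74 in WT, 7.24, 7.26 and 7.01 in p27-/- and 7.02, 7.38 and 7.21 in compound mutants. WT replicate 1 lay above mutant samples of both groups, and the differences were 0.23 (SE 0.14, adjusted p = 0.335) and 0.26 (SE 0.14, adjusted p = 0.346). E2f3 was at 7.25, 7.60, 7.57 and 7.58 in WT, 7.70, 7.53 and 7.93 in p27-/- and 7.59, 7.56 and 7.57 in compound mutants. WT replicate 1 stood apart from the other WT samples, and the compound mutants sat within 0.03 of each other at the level of the remaining WT samples. The difference was 0.22 in p27-/- (SE 0.12, -0.04 to 0.48, adjusted p = 0.281) and 0.07 in compound mutants (SE 0.12, adjusted p = 0.801).

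The repressors E2f4 (ENSMUSG00000014859, chromosome 8 from 105297663 to 105305370) and E2f5 (ENSMUSG00000027552, chromosome 3 from 14578602 to 14606309), the usual partners of p107 and p130, differed little between genotypes. E2f4 lay between 7.77 and 7.95 in WT, 7.66 and 7.86 in p27-/- and 7.60 and 7.88 in compound mutants, so that the groups overlapped. Its 95% confidence intervals, -0.30 to 0.14 in p27-/- and -0.31 to 0.13 in compound mutants, were among the narrowest of the E2F genes. E2f5 lay between 6.82 and 7.28 in WT, 7.24 and 7.40 in p27-/- and 7.02 and 7.24 in compound mutants, with differences of 0.20 (SE 0.13, adjusted p = 0.366) and 0.04 (SE 0.13, adjusted p = 0.906).

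The atypical repressors had their highest value in the same p27-/- mouse. E2f7 (ENSMUSG00000020185, chromosome 10 from 110745439 to 110787384) was at 4.04, 4.23, 3.85 and 3.97 in WT, 4.24, 4.32 and 4.96 in p27-/- and 4.15, 4.01 and 4.42 in compound mutants. The p27-/- samples lay above all WT samples, 2 of them by little, and the compound mutants overlapped both groups. The difference of 0.49 in p27-/- had a larger estimate than that of E2f1 but a larger error (SE 0.16, 95% confidence interval 0.14 to 0.83), and did not pass the threshold (adjusted p = 0.0797). It moved between 0.26, without p27-/- replicate 3, and 0.62 with a sample left out. In compound mutants it was 0.17 (SE 0.16, adjusted p = 0.628), and between the mutants -0.32 (SE 0.17, -0.69 to 0.05, adjusted p = 0.845).

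E2f8 (ENSMUSG00000046179, chromosome 7 from 48866429 to 48882073) had a mean just under the minimum of 3.32 and was outside the main test. Its log2 values were 3.09, 3.35, 3.09 and 3.07 in WT, 3.31, 3.19 and 3.86 in p27-/- and 3.32, 3.16 and 3.57 in compound mutants. WT replicate 2 lay above 2 samples of each mutant group, and replicate 3 was the highest of both mutant groups for E2f7 and E2f8 alike. In the fit with no filter the differences were 0.30 (SE 0.15, adjusted p = 0.325) and 0.20 (SE 0.15, adjusted p = 0.577). The difference of means in p27-/- moved to 0.099 without p27-/- replicate 3 and to 0.436 without replicate 2, and in compound mutants to 0.088 without their replicate 3.

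**Figure D2:**
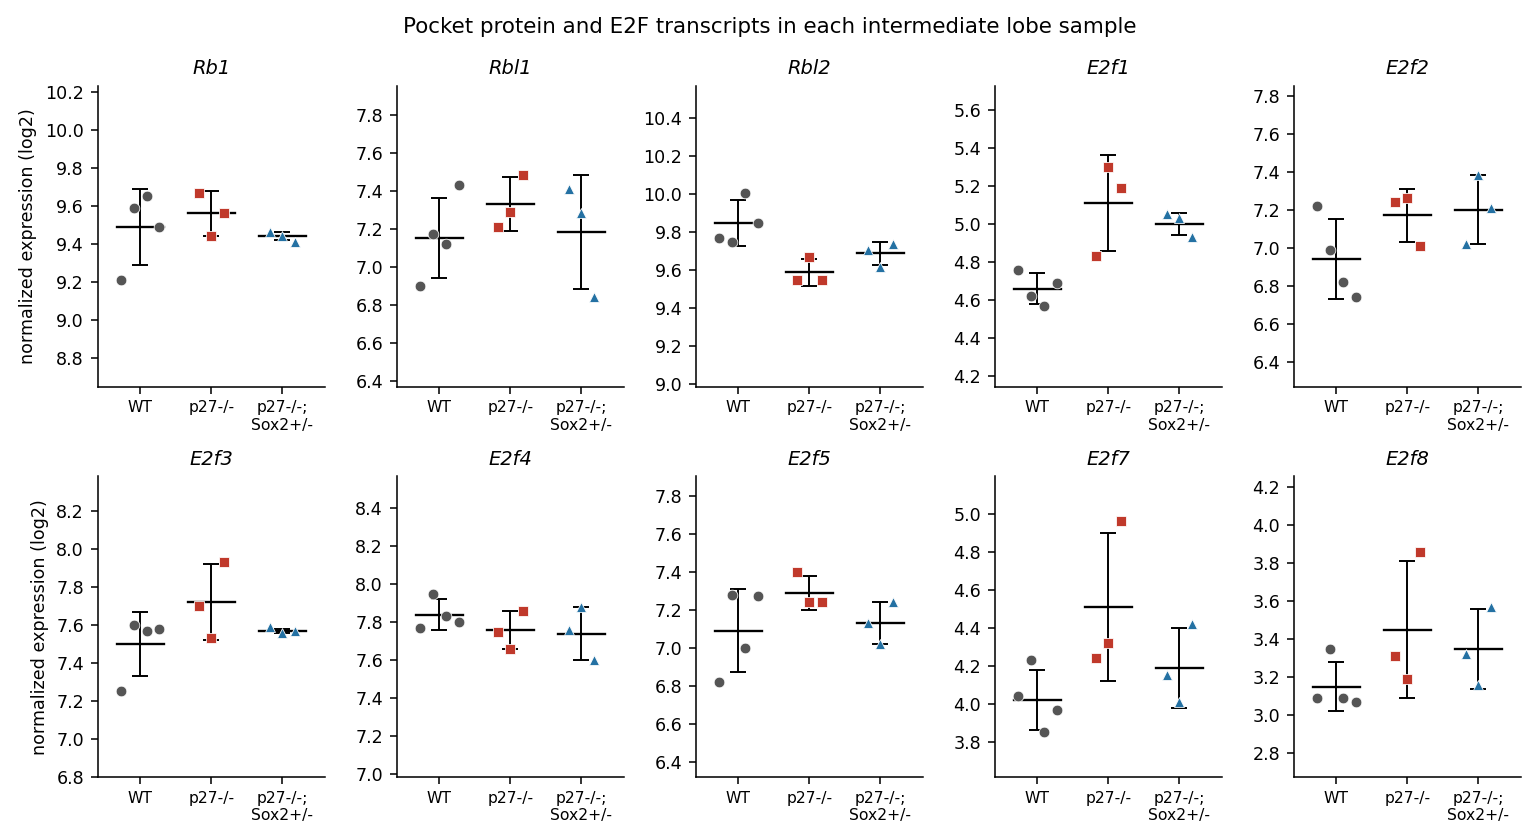
Normalized expression (log2, vertical axis) of the 10 genes in each sample, in replicate order within each genotype, with horizontal lines for the group mean and bars for the SD (n = 4, 3 and 3). Each panel spans the same log2 range. The mutant samples of E2f1 lie above 4.76, the highest WT sample, and those of Rbl2 below 9.75, the lowest WT sample.

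Over all members, p27-/- IL differed from WT in 3 of the 9 at an unadjusted p under 0.05 (E2f1, E2f7 and Rbl2), beside 24.1% of all genes. Samples did not overlap for E2f1 and E2f7, which were higher, and Rbl2, which was lower, where 20.6% of all genes did not overlap. The difference was positive in 7 of the 9, with a median of 0.20 against 0.01 over all genes tested. In compound mutants against WT none of the 9 was called by limma, beside 2.71% of all genes, and 1, E2f1, had an unadjusted p under 0.05, beside 17.8% of all genes. The alternatives with limma listed under the methods gave 0 calls as well. E2f1 and Rbl2 had samples that did not overlap, beside 15.0% of all genes, and the median difference was 0.04. Both comparisons with WT use the same 4 WT samples. Between the mutants none of the 9 was called, beside 0.145% of all genes, none had an unadjusted p under 0.05, beside 6.65%, and the median was -0.12. The intervals between mutants were wide, from -0.50 to 0.20 for Rbl1 and from -0.69 to 0.05 for E2f7, so that differences of these sizes were not excluded at this number of mice.

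**Figure D3:**
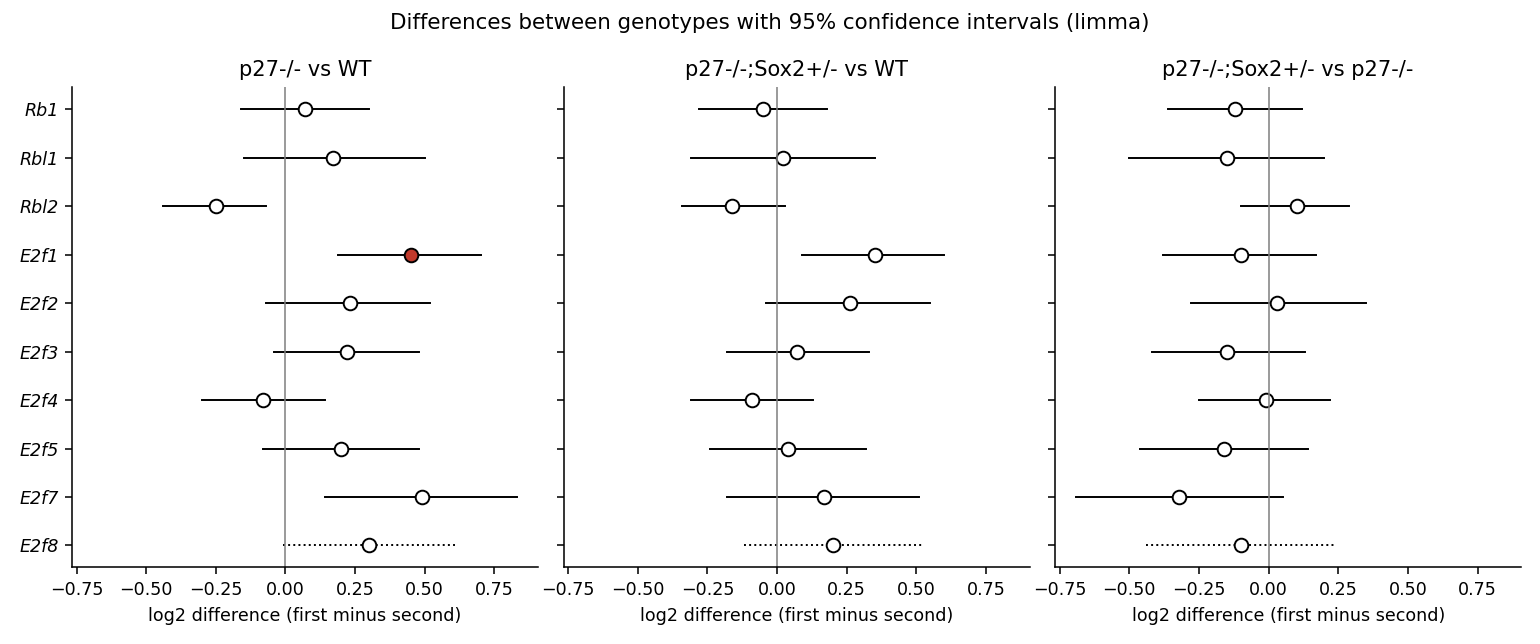
Log2 difference between genotypes (horizontal axis) of each gene in the 3 comparisons, first genotype minus second, with 95% confidence intervals. The filled point, E2f1 in p27-/- against WT, passed the threshold after adjustment over all tested genes, and the dotted intervals of E2f8 come from the fit with no filter on low values.

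Of 11 dimer partners and MuvB subunits (with E2f6, Foxm1, Mybl1 and Mybl2), Tfdp1 was the 1 called in p27-/-, where it rose. Of all genes tested, 7.78% were called in p27-/-, with 3.16% higher, so that 1 of 11 was near the share of all genes. Tfdp1 encodes DP1, 1 of the DP partners with which E2F1 to E2F6 bind DNA. It was at 8.82, 9.36, 9.15 and 9.01 in WT, 9.75, 9.51 and 9.62 in p27-/- and 9.27, 9.34 and 9.37 in compound mutants. The p27-/- samples were above all others, and the compound mutants overlapped WT. The difference was 0.54 in p27-/- (SE 0.11, adjusted p = 0.0135). The call was lost without p27-/- replicate 1 or 3 (up to 0.0669) and with the replicate block (0.0591). Tfdp2, which encodes the other DP partner in the list, was named after its values were seen. It was at 9.92 ± 0.08 (SD, n = 4) in WT and differed by 0.01 in p27-/- (SE 0.08, adjusted p = 0.968). None of the 11 was called in compound mutants or between mutants by limma, beside 2.71% and 0.145% of all genes. An unadjusted p under 0.05 was found for 3 and 2 of the 11, beside 17.8% and 6.65% of all genes. The medians of the list were 0.15 in p27-/- and 0.22 in compound mutants. Foxm1, the activator that takes over from DREAM at late cell cycle promoters and was named after its values were seen, had a difference of 0.51 in p27-/- (SE 0.17, adjusted p = 0.0753) and 0.39 in compound mutants (SE 0.17, adjusted p = 0.236).

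Upstream of the pocket proteins, 2 D-type cyclins fell. Ccnd2, which encodes a cyclin that activates Cdk4 and Cdk6, was at 11.55, 11.87, 11.59 and 11.54 in WT, 8.43, 8.68 and 8.34 in p27-/- and 9.91, 9.48 and 9.03 in compound mutants. The 3 groups did not overlap. Its difference from WT was -3.16 in p27-/- (SE 0.16, adjusted p = 3.35e-07), a level 0.112 times that of WT, and -2.17 in compound mutants (SE 0.16, adjusted p = 2.46e-05), and it was higher by 0.99 in compound than in p27-/- mutants (SE 0.18, adjusted p = 0.0485). The last of these was lost when any of 7 samples was left out (all p27-/- samples, WT replicates 3 and 4 and compound mutant replicates 1 and 2), with an adjusted p of up to 0.38, and with no filter (0.10). Ccnd1, the other D cyclin that changed, was between 9.35 and 9.97 in WT, 7.43 and 8.01 in p27-/- and 8.02 and 8.46 in compound mutants, and fell by 1.93 in p27-/- (adjusted p = 5.33e-05) and 1.43 in compound mutants (adjusted p = 0.00118).

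Of the 13 kinase and inhibitor genes tested, 2 rose and 3 fell in p27-/-, and 3 fell in compound mutants. The list held 15 (Cdkn2a was under the minimum and Cdkn2d was not matched). Of all genes tested, 7.78% were called in p27-/-, with 3.16% higher, and 2.71% in compound mutants. The third that fell in both was Cdkn1b, the gene deleted in both mutants, so that its fall is no finding about the list. Cdkn1b fell by 0.43 (adjusted p = 0.047) and 0.72 (adjusted p = 0.00854, and 0.0661 without compound mutant replicate 2). Cdkn2c, the inhibitor p18 of Cdk4 and Cdk6, rose by 0.62 in p27-/- (SE 0.16, adjusted p = 0.0346), from between 5.67 and 6.31 in WT to between 6.40 and 6.82. The other gene that rose, Cdk4 itself, which falls outside the naming rule, changed by 0.34 (SE 0.09, adjusted p = 0.0397). With a sample left out, the adjusted p of Cdkn1b, Cdkn2c and Cdk4 in p27-/- reached 0.175, 0.14 and 0.152, and the call was lost without any of 7, 5 and 8 of the 10 samples, p27-/- replicates 2 and 3 and WT replicate 4 among them for each gene. Among 10 chromatin partners of the pocket proteins, Ezh2, the E2F-regulated H3K27 methyltransferase, rose in p27-/- by 0.53 (SE 0.13, adjusted p = 0.0274). The call was lost without WT replicate 4 or p27-/- replicate 1 or 3 (up to 0.134). Ezh2 was the 1 of the 10 called, beside 7.78% of all genes, so that this share was near that of all genes. The count in p27-/- was 3 with a mean of at least 50, array weights or median centring. It was 0 in a fit of only the 2 groups and with the replicate block. In compound mutants limma called none of the 10, beside 2.71% of all genes. It called 1 with a mean of at least 50, no trend or median centring and 2 with array weights. An unadjusted p under 0.05 was found for 2 of the 10, beside 17.8% of all genes.

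Downstream of the switch lie its target genes. Of 26 G1/S genes with known E2F sites, 5 rose and none fell in p27-/- (3.16% of all genes tested rose), 25 of the 26 had a positive difference, and the median was 0.21. Mcm2, a subunit of the replicative helicase, was at 7.38, 7.30, 7.20 and 7.19 in WT, 7.85, 7.87 and 7.67 in p27-/- and 7.59, 7.62 and 7.54 in compound mutants. All 3 groups were separate, with compound mutants in between, and the difference in p27-/- was 0.53 (SE 0.10, adjusted p = 0.00797). Rrm2, a ribonucleotide reductase subunit, rose by 0.69 (SE 0.16, adjusted p = 0.019) and Mcm3 by 0.48 (SE 0.13, adjusted p = 0.039), and the others that rose, Rrm1 and Mcm6, by 0.36 and 0.34. Mcm2 kept its call without any sample. Rrm2 lost it without WT replicate 4 or p27-/- replicate 3, and Mcm3, Rrm1 and Mcm6 lost it without any of 6, 9 and 10 of the samples, so that the count ranged from 1 to 6. In compound mutants limma called none of the 26 (2 with array weights), beside 2.71% of all genes. The median was 0.17, and 6 had an unadjusted p under 0.05, beside 17.8% of all genes. Between mutants limma called none of the 26 either, beside 0.145% of all genes. The median was -0.10, and 2 had an unadjusted p under 0.05, beside 6.65% of all genes.

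Of the 19 G2/M genes tested, which DREAM is known to hold silent in quiescence (Plk1 was under the minimum), 17 rose in p27-/-. Their median was 0.87, and 3.16% of all genes tested rose. Mki67, the proliferation marker, was at 6.79, 8.12, 7.27 and 7.26 in WT, 9.47, 9.27 and 9.89 in p27-/- and 8.82, 8.44 and 8.89 in compound mutants. The 3 groups did not overlap, although WT replicate 2 came near the compound mutants. Its difference from WT was 2.19 in p27-/- (SE 0.24, a fold of 4.55, adjusted p = 0.000396) and 1.36 in compound mutants (SE 0.24, adjusted p = 0.0105). Top2a, the mitotic topoisomerase, rose by 2.13 (adjusted p = 0.000246) and 1.16 (adjusted p = 0.014, and up to 0.0656 without compound mutant replicate 1 or 3), and Cenpf, a kinetochore protein, rose by 1.82 in p27-/- (adjusted p = 0.000764). Mki67 and Top2a were the 2 of 19 called in compound mutants, beside 2.71% of all genes. The median there was 0.35, and 14 of 19 had an unadjusted p under 0.05, beside 17.8% of all genes. The count of 2 became 4 without WT replicate 2, and 1 without compound mutant replicate 1 or 3 and with the replicate block. The count of 17 ranged from 10, without p27-/- replicate 3, to 17 with a sample left out, and was 7 with a mean of at least 50, which tested fewer genes.

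Between the mutants all 19 G2/M genes were lower in compound mutants, with a median of -0.43. Of these, 14 had an unadjusted p under 0.05, beside 6.65% of all genes. None passed the adjusted threshold in limma, beside 0.145% of all genes, and 8 did with array weights. Set beside these lists, E2f1 in p27-/- (0.45) lay between the medians of the G1/S and the G2/M genes. Sample by sample, the p27-/- replicate with the highest G2/M median (replicate 3, 1.13 above the WT mean) was also that with the highest E2f7 and E2f8, while E2f1 was highest in replicate 2, whose G2/M median was the lowest of the 3 (0.66). In compound mutants replicate 3 likewise had the highest G2/M median (0.57) and the highest E2f7 and E2f8, and the lowest E2f1 and Rbl1.

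**Figure D4:**
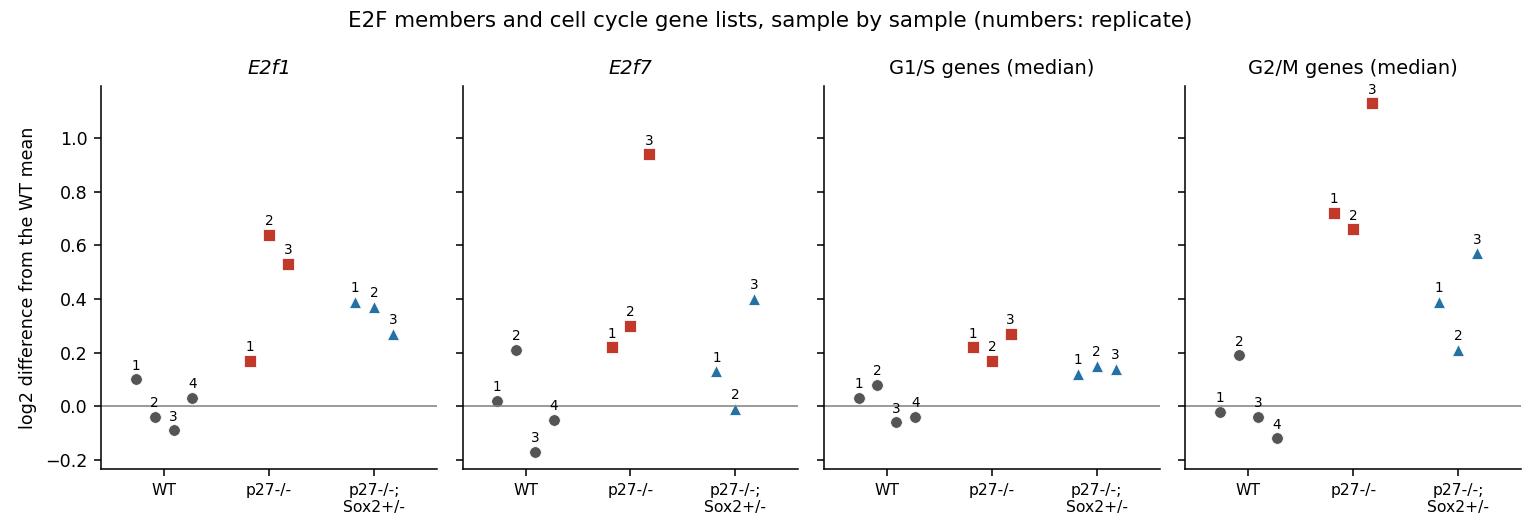
Log2 difference from the WT mean (vertical axis) in each sample, for E2f1, E2f7 and the median of 26 G1/S and 19 G2/M genes, with the replicate number above each point. The 3 p27-/- samples reach 1.13 for the G2/M median and 0.27 for the G1/S median.

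**Figure D5:**
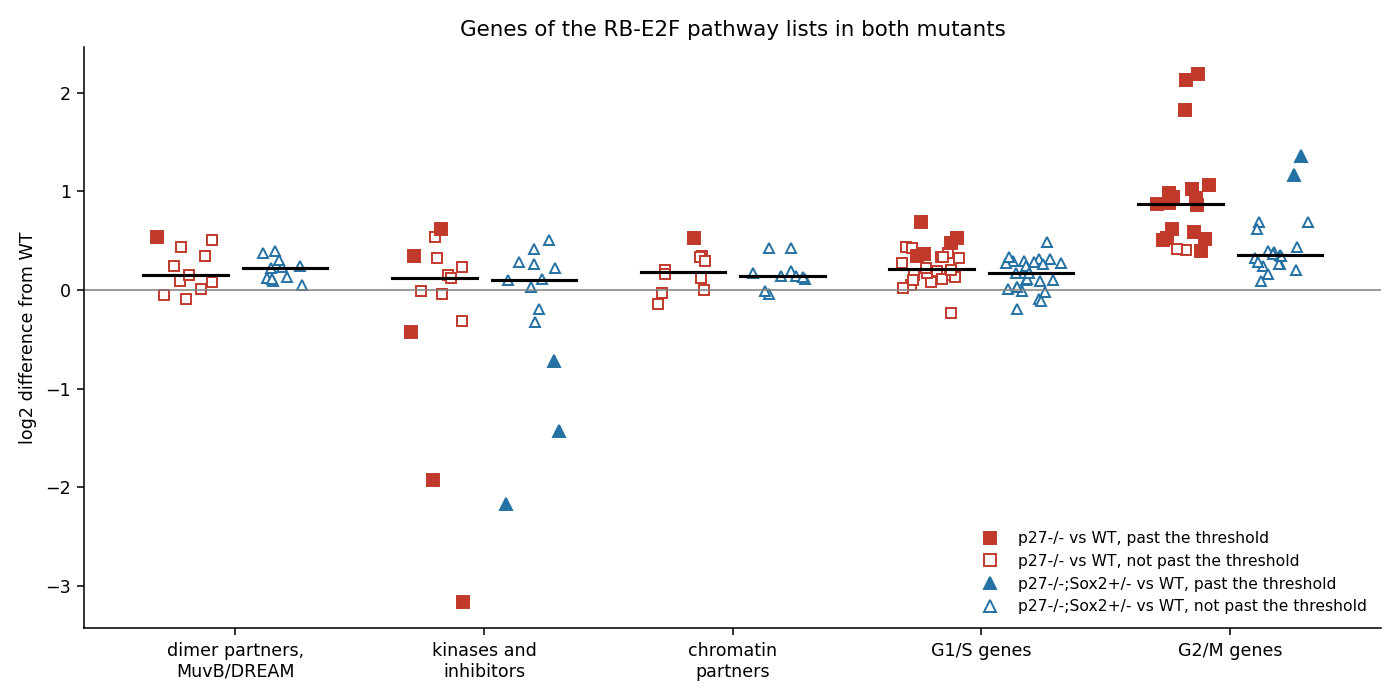
Log2 difference from WT (vertical axis) of each gene of the 5 pathway lists, for p27-/- (squares) and p27-/-;Sox2+/- (triangles), with filled symbols for genes past the threshold and bars for list medians. Points are spread sideways for legibility. The 17 filled squares of the G2/M list contrast with 5 in the G1/S list, and the lowest symbols are Ccnd2.

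The genes whose pattern over the 10 samples was nearest to that of E2f1 included A630055G03Rik and Aurkb, by the root mean square of the difference between values centred on each gene's mean (0.085 for both, where E2f1 itself varied by 0.233 around its mean). Aurkb, a mitotic kinase of the G2/M list, rose by 0.39 in p27-/- (adjusted p = 0.0252), as did A630055G03Rik by 0.40 (adjusted p = 0.0197). These genes were picked for likeness on the same values and are a description.

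The promoters show which members carry the letters that E2F and DREAM are known to read. RefSeq windows of 300 bases (250 before and 50 after a transcription start, GRCm38.p6) were available for 7 of the 10 genes, with 9 windows, and Rb1, E2f4 and E2f5 are named only. The E2F letters searched were TTTCCCGC, TTTCGCGC, TTTGCCGC and TTTGGCGC on both strands, and they occur in 2.26% of all 32851 windows. They were found in 4 of the 7 genes, Rbl1, E2f2, E2f3 and E2f7. The stretches below are shown because they place that match near the start of each gene, on the strand of the gene, with the match in capitals and up to 10 bases on either side.
Rbl1 (chr2:157204535-157204562, minus strand): agaaggcgatTTTCGCGCgctttgtcgc
E2f2 (chr4:136172303-136172323, plus strand): cggcatatagTTTGGCGCtaa
E2f3 (chr13:29986057-29986084, minus strand): tgaaaagccgGCGGGAAAtctgagtttc
E2f7 (chr10:110745231-110745258, plus strand): ccgcgtccccGCGGGAAAcgctcccgcg

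The match lay 18 bases before the start in Rbl1, 11 before it in E2f3, 198 before it in E2f7 and 40 after it in E2f2, counted to its first base. Of these 4 genes none passed the threshold in any comparison, and E2f1, which did, had no match in its window (chr2:154569377-154569676). That window lies inside the annotated gene, which runs on to 154569892, so that bases upstream of the outermost start were not searched, as for E2f8. The cell cycle homology letters, TTTGAA and TTCGAA on both strands, which the MuvB core is known to bind, are short and occur in 19.2% of all windows. They were found in 4 of the 7 genes, E2f2, E2f3, E2f8 and Rbl2, and are shown for comparison with those of Mki67, the G2/M gene with the largest difference.
E2f2 (chr4:136180741-136180766, plus strand): agcctgtgtgTTTGAAtggtgtggaa
E2f3 (chr13:29986071-29986096, minus strand): gcaaatatggTTTGAAaagccggcgg
E2f8 (chr7:48881601-48881626, minus strand): gcgggttaatTTCAAAtcgggggctg
Rbl2 (chr8:91069846-91069871, plus strand): tctttttctcTTCAAAcgagccttct
Mki67 (chr7:135716462-135716487, minus strand): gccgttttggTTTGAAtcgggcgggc

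The homology letters shown lay 20 bases before the start in E2f8, 98 in Mki67 and 201 in Rbl2. In E2f2 they lay in its other window (chr4:136180532-136180831), 31 bases before a different start. The E2f2 window with E2F letters held no homology letters. In E2f3 both kinds of letters lie next to each other, at 23 and 11 bases before the start. Of the 9 named list genes that rose and had a window, 3 held E2F letters (Tfdp1, Ezh2 and Mcm3, shown here), Mcm2, Cenpf, Mki67 and Top2a held the homology letters alone, and Rrm2 and Cdkn2c held neither.
Tfdp1 (chr8:13338698-13338725, plus strand): ggcgccgaagGCGCGAAAaggcgcgcag
Ezh2 (chr6:47595010-47595037, minus strand): ggttgctgcgTTTGGCGCtcggtccggt
Mcm3 (chr1:20820276-20820303, minus strand): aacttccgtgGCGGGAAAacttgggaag

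Of the G1/S genes with a window, 11 of 22 held E2F letters and 3 of 22 the homology letters, whereas of the G2/M genes 1 of 18 held E2F letters and 14 of 18 the homology letters, beside 2.6% and 21.7% of all genes with a window. Of 451 tested genes with E2F letters, 7.10% rose in p27-/-, beside 3.67% of all 10030 tested genes with a window, and of 1641 with the homology letters 6.03% did. These shares are descriptions and were not tested, and the lists themselves were drawn from genes known for these sites. In compound mutants the shares that rose were 0.665% with E2F letters and 1.40% with the homology letters, beside 0.927% of all.

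Reads of several members could include those of other genes, because reads were counted without regard to strand. In RefSeq, Rb1 overlaps Lpar6 and Mir687, Rbl2 overlaps Aktip, E2f1 overlaps Necab3, E2f5 overlaps Rbis, Rbl1 overlaps the pseudogene Gm14277, E2f7 overlaps Gm51780 and E2f8 overlaps LOC115486422 and Gm2788. E2f2, E2f3 and E2f4 overlap no other gene there.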

How the data were processed

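Bulk RNA of dissected IL from 10 mice was measured, 1 library per mouse, in groups taken from the genotype in the labels. Libraries were made with the Ovation V2 kits. The authors aligned reads with STAR 2.5.2a, counted them per gene with RSEM 1.3.30 on the Ensembl transcriptome of GRCm38 without strand, normalized with DESeq2 1.18.1 and deposited log2 values for 29527 genes (-1.89 to 21.5). The transformation is not given in the sources used here. The table holds no counts, so the depth of any given sample is not known from it (the study gives only a target for the average), and precision is set by how many mice each group has.

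Of the IDs, 22709 had a symbol. The 17268 genes with a mean of at least 10 on the linear scale (log2 3.32) were tested by a single limma fit to the 3 genotypes (version 3.58.1, run in R 4.3.3, trended eBayes), with Benjamini-Hochberg adjustment over all tested genes and a threshold of 0.05. Tables used pandas 2.3.3, numpy 2.4.6 and matplotlib 3.10.9 under Python 3.11.15. Gene positions and promoter windows are RefSeq's for GRCm38.p6, and transcript lengths GENCODE's for NCBIM37.

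The members and lists were chosen with earlier results of these data known, and the lists are described by counts and medians. Named genes were all members, the 3 genes of each list with the smallest p among those past the threshold in each comparison, and the 3 genes nearest to a called member, of which 1 is not reported here. Alternatives changed the filter (none, or a mean of at least 50), the scaling (quantile normalization or median centring) and the model (replicate block, Xist covariate, array weights, untrended eBayes, or a fit of 2 groups), or left out each sample in turn.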

Additional observations from a re-analysis of the deposited data

Results flagged for a closer look

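Among the 27 measures checked in the 4 WT samples, 4 held a sample far from the other 3, where chance gives about 1 in 20, or 1.4. E2f3 in WT replicate 1 was at 7.25, against 7.57 to 7.60 in the others. E2f8 in WT replicate 2 was at 3.35, against 3.07 to 3.09. Ccnd2 in WT replicate 2 was at 11.87, against 11.54 to 11.59, and Top2a in the same mouse was at 6.98, against 6.18 to 6.27. That mouse also had the highest summed anterior lobe hormone transcripts (17.7), whose part in these values was not tested. The effect on Ccnd2 differed between the mutants by 0.99 (adjusted p = 0.0485 in limma), and this was the gene of the lists for which that difference passed the threshold.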

How the results depend on the processing

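The count of members called in p27-/- against WT was 1. It was 0 with no filter, with a mean of at least 50 (which removed E2f1 and E2f7), in a fit of only the 2 groups and with the replicate block, and 0 to 1 with a sample left out. In compound mutants against WT and between the mutants it was 0 in every alternative, samples left out included. Of the members' differences with all samples in the fit, 2 turned in sign, both with array weights: E2f5 in compound mutants against WT (-0.08) and E2f4 between the mutants (0.06). With a sample left out, small differences turned in sign, with ranges of -0.023 to 0.13 for Rb1 in p27-/-, and in compound mutants against WT of -0.143 to 0.005 for Rb1, -0.096 to 0.189 for Rbl1, -0.009 to 0.107 for E2f3 and -0.051 to 0.104 for E2f5. Between the mutants these ranges were -0.27 to 0.015 for Rbl1, -0.055 to 0.123 for E2f2, -0.079 to 0.062 for E2f4 and, for the difference of means, -0.236 to 0.101 for E2f8. The replicate numbers did not pair the samples: over 9 same-numbered pairs the correlation of deviations from the group means ran from -0.24 to 0.18, and 1 was over 0.1. The replicate block took the calls over all genes in p27-/- against WT from 1343 to 595, and in compound mutants from 468 to 209. Leaving out samples took the former to between 403 (p27-/- replicate 3) and 1709 (WT replicate 1), and array weights took the calls between the mutants from 25 to 283. The cause was not tested.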
